A study of Mus musculus with 45 samples.

Results

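Nrp1-deficient regulatory T cells (Tregs) labelled N and wild-type (WT) Tregs, both from the non-draining lymph nodes of mice with B16 tumours, were compared by RNA sequencing. The comparison holds 10 of the 45 libraries of the series, 5 N and 5 WT, chosen by their titles. Each group has the replicate labels 2, 3, 4, ds1 and ds2, and each library was made from 5000 sorted cells. The protocol gives 3 single-sorted and 2 double-sorted samples a group without naming them, and the labels ds1 and ds2 are read here as the double-sorted ones because their number matches. The N cells carry a genotype label that reads Het_Nrp1-, which other samples from heterozygous mice also carry, while the design text names homozygous deficient mice. The titles keep the N samples apart, so N is used here as the titles give it. WT cells have the genotype label WT. No label gives the age or sex of the mice, the promoter that drives the deletion or the exons removed. The published mouse model, as general background that the labels do not state, deletes a floxed Nrp1 gene in Foxp3-expressing cells. B16 is a transplantable mouse melanoma, and a non-draining node is one that does not receive lymph from it. The tumour Tregs of the same N and WT labels, 5 libraries each, entered the same fit, and so the filter and the estimate of spread behind each lymph node p and interval, and they give the tumour values set beside those of the node.

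Tregs are CD4 T cells, defined by the transcription factor Foxp3, that restrain other immune cells. Neuropilin-1, the product of Nrp1, is a surface co-receptor for semaphorins and vascular growth factors. On mouse Tregs it marks many cells of thymic origin, and its binding of Sema4a is known to hold back AKT signalling and to support Treg stability in tumours. The title of the study names interferon gamma as a driver of Treg fragility, a state in which Tregs keep Foxp3 but lose suppressive function and make interferon gamma. The lymph node pair therefore shows the Nrp1 label away from the tumour.

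No gene separated N from WT lymph node Tregs at an adjusted p below 0.05. Of 11884 genes tested with edgeR's quasi-likelihood test, with the replicate number as a block, 0 (0%) passed, and the lowest adjusted p was 0.959. An unadjusted p below 0.05 was found for 512 genes (4.31%), 248 of them higher (2.09%) and 264 lower (2.22%) in N. That count depended on the libraries fitted: it was 214 of 10152 genes (2.11%) with the 10 lymph node libraries alone, 1125 (9.01%) with the single-sorted and 322 (2.75%) with the double-sorted libraries alone. The shares over all genes given beside the lists below are those of the 20-library fit. All 5 N libraries lay above all 5 WT libraries for 30 genes (0.252%) and below them for 22 (0.185%). Other tools gave other counts: DESeq2 called 37 genes and limma with quality weights 2. Without a filter on low counts edgeR called 24. The precision of single genes was low. The median standard error (SE) of a log2 fold change was 0.82, and the 95% interval lay within 1 log2 unit of 0 for 1302 genes. Among the 2303 genes with a mean of at least 100 CPM (counts scaled to library size by TMM) the median SE was 0.34, and 1168 (50.7%) had such an interval. A 2-fold difference was therefore outside the interval for about 1 in 2 of the well expressed genes and for few of the others.

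Sequencing depth was 4731524 to 21432121 counts per library in N (median 11759369) and 5408375 to 17544940 in WT (median 8488379). The first principal component of the 10 libraries took up 28.2% of their variance, and replicate number accounted for 94.5% of its spread. It mainly set the ds1 libraries apart, at 143 in N and 153 in WT, against -67.3 to 29.8 in the others. The second took up 21.2%, with 0.217% of its spread by replicate number. It set N ds1 (-154) against WT ds1 (150), with the others at -8.72 to 5.31. Both ds2 libraries stood apart in Malat1, a nuclear RNA, at 1.98% of counts in N and 1.81% in WT, against at most 0.571% elsewhere. WT replicate 3 had the most genes with a count, 19485, and N ds1 18026, against 16901 or fewer in the others. Y-linked reads were found in 1 N library (replicate 2, 9714 counts) and 1 WT library (replicate 3, 3374 counts). The X-linked RNA Xist was at 0.191 CPM and 2.53 CPM in these, against 7.58 to 488 CPM in the others. Within replicate numbers 2 and 3, N and WT therefore differed in Y-linked reads, and the effect of this was not tested. T cell genes were present in all 10 libraries. Cd3d ran from 622 to 1815 CPM in N and from 727 to 1414 CPM in WT. Cd3g ran from 845 to 2508 CPM in N and from 898 to 2381 CPM in WT. Cd4 ran from 205 to 563 CPM in N and from 161 to 464 CPM in WT. Cd3e ran from 113 to 365 CPM in N and from 69.5 to 545 CPM in WT, lowest in the ds1 library of each group. Genes of other cells were also present, at uneven levels. Summed over a list, some reached the level of single T cell genes. The summed level of the B cell list ran from 63.3 to 611 CPM in N and from 71.7 to 1152 CPM in WT, and the CD8 T cell list from 151 to 748 CPM in N and from 157 to 749 CPM in WT. The macrophage and monocyte list ran from 477 to 1324 CPM in N and from 539 to 1075 CPM in WT, and the dendritic cell list from 259.4 to 1166 CPM in N and from 169 to 800.0 CPM in WT. The NK cell list ran from 1.23 to 216 CPM in N (median 101) and from 7.33 to 190 CPM in WT (median 40.5). Its median log2 difference between N and WT was 0.76 (2), 0.91 (3), 0.04 (4), 1.21 (ds1) and -0.28 (ds2). The melanoma list reached 76.8 CPM in N and 37.6 CPM in WT. The haemoglobin gene Hbb-b1 was at 0 in all 10 libraries. Their part in the results below was not tested.

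Nrp1 was lower in N lymph node Tregs without being absent. It stood at 167, 142, 189, 352 and 210.3 CPM in N replicates 2, 3, 4, ds1 and ds2, against 260.0, 441, 326, 404 and 398 CPM in the same WT replicates. N was below WT in each of the 5 numbers, but the groups overlapped, because N ds1 lay above WT replicates 2 and 4. The means were 212 ± 82.2 CPM in N and 366 ± 72.1 CPM in WT (SD, n = 5 each). The difference in mean log2 CPM was -0.83 in a two-sided exact permutation test (p = 0.0238, adjusted p = 0.0357 over the 3 genes tested this way). The smallest p that test allows is 0.00794. It does not use the replicate number. A sign-flip permutation test within the numbers gave p = 0.0625, the smallest it allows, so it could not pass. In the fit across all genes the log2 fold change was -0.78 (SE 0.28, 95% interval -1.36 to -0.20), with an unadjusted p of 0.0106 and an adjusted p of 0.959. In tumour Tregs Nrp1 averaged 157 CPM in N and 174 CPM in WT, a log2 fold change of -0.11 (SE 0.28). The test of the difference between the tissues gave an unadjusted p of 0.0989. Counts over the whole gene (mm10 chromosome 8, 128358604 to 128503363, plus strand) do not check a deletion of some exons, so the groups are named by their labels. In bulk RNA, fewer cells with the transcript and less transcript per cell cannot be told apart.

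Ifng, the gene of interferon gamma, was low in lymph node Tregs and higher in N. Its level was 25.9, 14.2, 8.88, 31.7 and 7.21 CPM in N replicates 2, 3, 4, ds1 and ds2, against 2.14, 8.35, 4.02, 0 and 5.09 CPM in WT. N was above WT in each of the 5 numbers, while N ds2 lay below WT replicate 3. The difference in mean log2 CPM was 2.70 (two-sided exact permutation p = 0.0159, adjusted p = 0.0357 over the 3 genes). The sign-flip permutation test within replicate numbers again gave p = 0.0625, the smallest it allows. Ifng was picked with its level in these libraries already known. The fit across all genes gave a log2 fold change of 1.73 (SE 0.85, interval -0.05 to 3.50) and an unadjusted p of 0.0556. In tumour Tregs the levels were far higher, with means of 294 CPM in N and 111 CPM in WT and a log2 fold change of 1.25 (SE 0.79). The difference between the tissues had a p of 0.678. The lymph node levels were single-digit in WT, with 0 counts in WT ds1, so the size of the fold change is poorly fixed.

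Foxp3 did not separate the groups. It stood at 3.39, 9.63, 6.50, 0.121 and 67.4 CPM in N replicates 2, 3, 4, ds1 and ds2, against 5.34, 0.613, 0, 0.989 and 55.7 CPM in WT. Only the ds2 library of each group was above 10 CPM. The exact permutation test gave a log2 difference of 1.33 (p = 0.492, adjusted p = 0.492), and the direction turned when the ds1 and ds2 libraries were taken alone (-0.88) and in the deposited log2 values (-0.14). The low Foxp3 counts in sorted Tregs stand beside high counts of other Treg genes, described next.

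**Figure D1:**
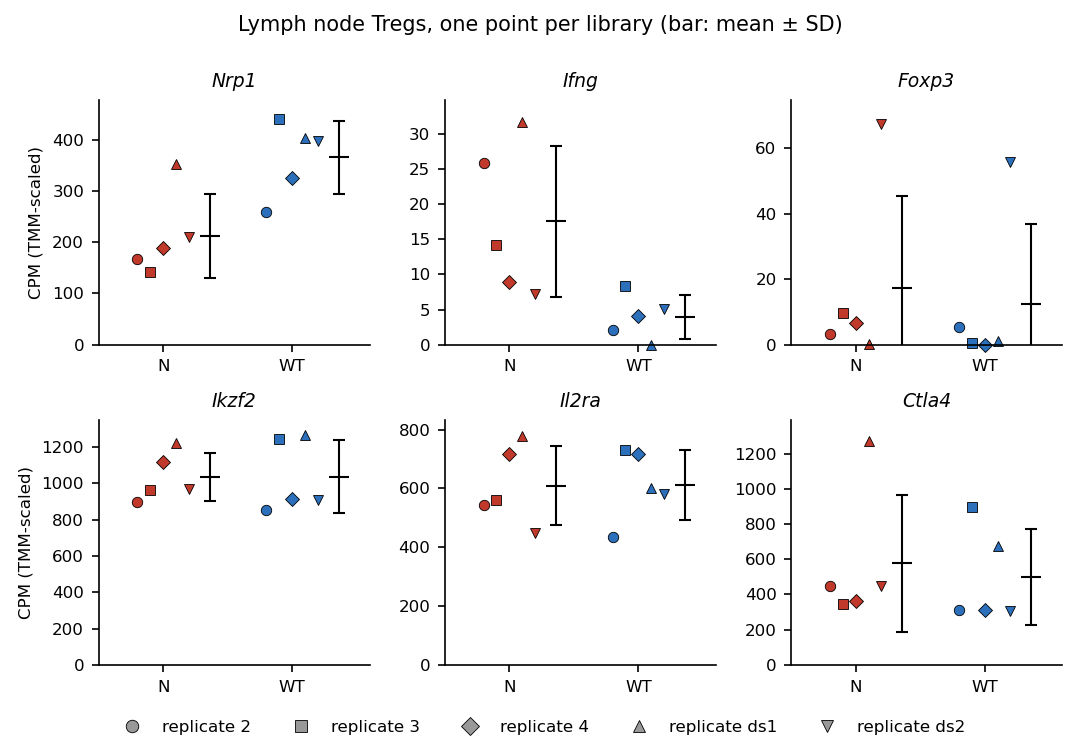
Level of 6 genes in N (left) and WT (right) lymph node Tregs, in TMM-scaled CPM on linear axes from 0. Each point is 1 library, its shape gives the replicate label, and the bar is the mean ± SD of 5 libraries, with lower ends under 0 not drawn. Nrp1 is lower in N within each replicate label (212 ± 82.2 CPM in N, 366 ± 72.1 CPM in WT), Ifng is higher in N within each, Foxp3 is high only in the ds2 libraries, and Ikzf2, Il2ra and Ctla4 overlap.

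Ikzf2 and Il2ra, well measured genes of the Treg identity list, had narrow intervals around 0. Of 26 listed, 24 were tested, 0 had an unadjusted p below 0.05 against 4.31% of all genes, too few members to read a difference from, and the median log2 fold change was 0.18 against -0.04 over all genes tested. The interval lay within 1 log2 unit of 0 for 13 of the 24. Ikzf2, the transcription factor Helios, stood at 896, 965, 1119, 1220.5 and 968 CPM in N replicates 2, 3, 4, ds1 and ds2, against 851, 1243, 916, 1264 and 906 CPM in WT. Its log2 fold change was 0.00 with an interval of -0.36 to 0.36, so a difference of 1.5-fold lies outside it. Il2ra, the alpha chain of the interleukin-2 receptor, averaged 609 ± 134 CPM in N and 612 ± 119.6 CPM in WT, and its interval was -0.47 to 0.43. Ctla4, an inhibitory receptor, ran from 348 to 1271 CPM in N and from 304 to 898 CPM in WT, with a wider interval of -0.57 to 0.72. Tnfrsf4, also of high level, averaged 1192 ± 762 CPM in N and 604 ± 97.4 CPM in WT, with an interval of -0.29 to 1.32. N was above WT in 4 of 5 numbers, and in ds1 N was lower, at 183 against 590 CPM. Tnfrsf18, the costimulatory receptor GITR, had the lowest p of the list (0.0600, log2 fold change 0.35): 432 to 667 CPM in N against 294 to 544 CPM in WT, with N above WT in 5 of 5 numbers.

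The list of effector and activated Treg genes gave 2 of 26 members with an unadjusted p below 0.05, both higher in N (7.69%, against 2.09% of all genes), and a median log2 fold change of 0.04. They were Havcr2, the checkpoint receptor Tim-3, and Ccr8, a chemokine receptor of tumour and tissue Tregs. Havcr2 rested largely on 1 library, with 1.19, 24.6, 2.11, 0.121 and 1.76 CPM in N replicates 2, 3, 4, ds1 and ds2 against 0.103 to 1.07 CPM in WT. Ccr8 stood at 10.8, 25.5, 57.3, 0.850 and 41.7 CPM in N, against 1.18, 0.460, 9.89, 0 and 28.7 CPM in WT. N was above WT in each number for Ccr8, although the groups overlapped widely, and the log2 fold change was 2.45 (SE 0.83, adjusted p = 0.959 in edgeR). Icos, a costimulatory receptor, differed in its values between the tissues: 443 ± 97.0 CPM in N and 437 ± 97.7 CPM in WT lymph nodes, but 1634 ± 357 CPM in N and 917 ± 233 CPM in WT tumours (interaction unadjusted p 0.0126). With 0 genes passing adjustment in the tissue interaction (lowest adjusted p 0.998 in edgeR, and 329 genes, 2.77%, at an unadjusted p below 0.05), that is a value and not a called difference.

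The 16 genes that the naming rule takes, the 8 lowest unadjusted p in each direction among genes above a minimum level and with 1 sign in at least 4 replicate numbers, had p between 0.000607 and 0.00306 and an adjusted p of 0.959 in edgeR. Since their p chose them, their fold changes are a description. Of the 8 higher in N, Mxd1, a partner of MAX that opposes MYC, stood at 78.7, 30.9, 53.5, 73.5 and 34.1 CPM in N replicates 2, 3, 4, ds1 and ds2, against 22.0, 6.36, 27.8, 15.2 and 30.8 CPM in WT. Its groups just failed to overlap, at 30.9 CPM in the lowest N library and 30.8 CPM in the highest WT library, and the log2 fold change was 1.48 (SE 0.38). Snx32, a sorting nexin, was also above WT in all N libraries, at 6.14 to 28.3 CPM in N against 0.460 to 5.99 CPM in WT. Further low-level genes were Ccrl2, a chemerin-binding receptor (5.34 to 21.8 CPM in N, 0 to 10.5 CPM in WT), and Wdr19, a ciliary transport protein (1.74 to 41.5 CPM in N, 0 to 2.84 CPM in WT). Slc16a1, the lactate transporter MCT1, stood at 87.7, 75.5, 65.5, 125 and 25.7 CPM in N, against 69.5, 5.44, 30.2, 4.78 and 2.39 CPM in WT. N exceeded WT in each of the 5 numbers, and WT replicate 2 lay among the N libraries. Havcr2 and Itgb1 also belong to this group.

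Itgb1, the integrin beta-1 chain that pairs with many alpha chains on T cells, was the one gene of high level among them. It stood at 703, 799, 830.3, 805 and 569 CPM in N replicates 2, 3, 4, ds1 and ds2, against 394, 251, 420.4, 395 and 532 CPM in WT. The lowest N library lay above the highest WT library, and the log2 fold change was 0.92 (SE 0.27, interval 0.36 to 1.47). The tumour libraries, whose difference did not rank the genes although they share the fit's estimate of spread, gave 1096 ± 169.5 CPM in N and 522 ± 236 CPM in WT. Their log2 fold change was 1.12 (SE 0.27), with an unadjusted p of 0.000417 that did not pass adjustment in edgeR (259 tumour genes, 2.18%, had one below 0.05, 122 of them, 1.03%, higher in N). Of the 16 genes, 11 had the same sign in the tumour as in the lymph node, 5 of the 8 higher and 6 of the 8 lower. Over all 11884 genes tested, 5689 were above 0 and 6195 below 0 in the tumour. The 16 genes are too few to read agreement between the tissues from that count. The interaction reuses the lymph node values that chose these genes, so its p is not read for them. Mxd1 had a tumour log2 fold change of -0.40 (199 ± 57.1 CPM in N, 259.9 ± 57.6 CPM in WT).

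**Figure D2:**
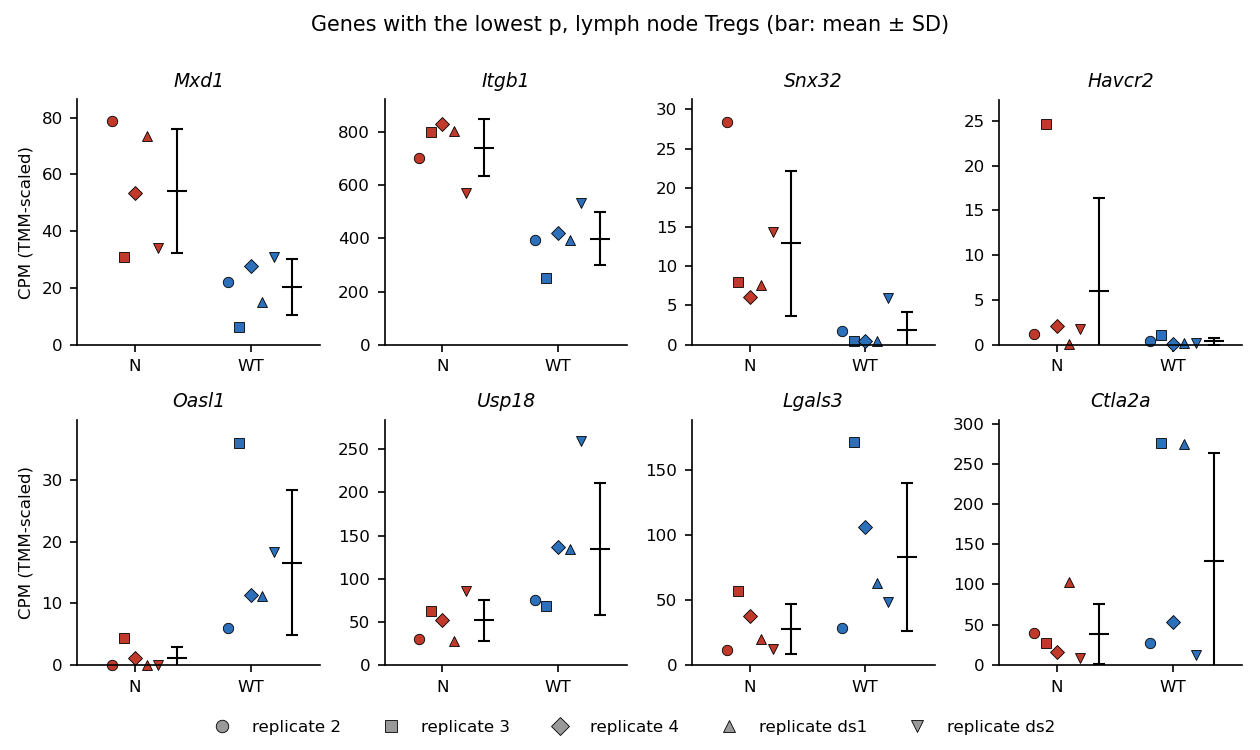
Level of 8 of the 16 genes with the lowest p in N (left) and WT (right) lymph node Tregs, in TMM-scaled CPM on linear axes from 0. Points are libraries, shapes give the replicate label and bars the mean ± SD of 5 libraries, with lower ends under 0 not drawn. The groups do not overlap for Mxd1, Itgb1, Snx32 and Oasl1, while the Havcr2 mean rests on N replicate 3 (24.6 CPM) and the WT mean of Ctla2a on replicates 3 and ds1.

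Of the 8 genes lower in N, 3 are stimulated by type I interferon: Oasl1, Rtp4 and Usp18, given below with their list. Lgals3, the galectin that binds surface glycans, ran from 11.6 to 56.6 CPM in N (median 20.1) and from 28.2 to 172 CPM in WT (median 62.8). N was lower in each of the 5 numbers (log2 fold change -1.64, SE 0.46). In the tumour the sign was the opposite, with 226 ± 127 CPM in N and 109 ± 49.2 CPM in WT. Phyh, a peroxisomal enzyme that breaks down branched fatty acids, was lower in each number too, at 33.4 to 72.8 CPM in N against 66.3 to 252 CPM in WT. Ctla2a, a cysteine protease inhibitor, ranged from 8.97 to 103 CPM in N and from 12.3 to 276 CPM in WT. Impg2, a proteoglycan known from the retina, had 0 counts in the 5 N libraries and 245 counts in the WT libraries. Summed over each group, that puts N at least 126-fold lower with a floor of 3 counts, a bound for counting error alone. WT replicate 2 held most of these counts, at 21.0 CPM, and WT ds1 was at 0 like the N libraries. Gstt1, a glutathione transferase, had 1 count in N and 363 in WT, a ratio of WT to N of 560.2 with an exact 95% counting interval of 99.9 to 22188. WT replicate 3 supplied most of the WT counts, at 25.6 CPM, and WT ds2 was at 0. Neither the bound nor this interval covers the spread between libraries, and neither gene separated the groups library by library.

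Most genes of the type I interferon list had lower values in N lymph node Tregs, although no member passed the adjusted threshold. Type I interferons signal through a complex of transcription factors that includes IRF9 and binds a short element in the promoters of antiviral genes. Of the 30 genes in the list, all tested, 22 had a log2 fold change below 0, against 52.1% of all genes. An unadjusted p below 0.05 was found for 8 lower and 0 higher, or 26.7% lower against the 2.22% background. The median was -0.42, against -0.04 over all genes. By replicate number the list's median difference between N and WT was -0.63 (2), -0.12 (3), -0.24 (4), -0.50 (ds1) and -1.32 (ds2), so each number gave the same sign and ds2 the largest size. Without N ds2 the median was -0.19 and 6 members were lower at that p. In the 3 single-sorted numbers alone it was -0.17, and in ds1 and ds2 alone -0.79. The list was written with results on these libraries already known, so its counts are a description.

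The promoters of 4 of these 8 genes are shown because their class is defined by the interferon-stimulated element. The windows run from 250 bases before to 50 bases after the annotated start (RefSeq, GRCm38.p6). Capitals mark matches to GAAANNGAAA, searched on both strands.
Isg15, chr4:156200769-156201068, minus strand: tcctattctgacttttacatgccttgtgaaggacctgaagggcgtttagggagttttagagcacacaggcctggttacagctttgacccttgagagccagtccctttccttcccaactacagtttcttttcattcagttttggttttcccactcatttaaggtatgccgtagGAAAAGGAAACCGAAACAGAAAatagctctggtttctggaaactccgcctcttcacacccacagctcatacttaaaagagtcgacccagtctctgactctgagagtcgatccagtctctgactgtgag
Slfn5, chr11:82951852-82952151, plus strand: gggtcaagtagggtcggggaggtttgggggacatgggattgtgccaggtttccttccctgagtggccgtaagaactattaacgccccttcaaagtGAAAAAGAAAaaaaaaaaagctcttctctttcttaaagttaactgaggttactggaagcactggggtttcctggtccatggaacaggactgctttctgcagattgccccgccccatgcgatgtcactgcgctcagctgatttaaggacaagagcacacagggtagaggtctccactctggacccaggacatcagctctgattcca
Ifih1, chr2:62646206-62646505, minus strand: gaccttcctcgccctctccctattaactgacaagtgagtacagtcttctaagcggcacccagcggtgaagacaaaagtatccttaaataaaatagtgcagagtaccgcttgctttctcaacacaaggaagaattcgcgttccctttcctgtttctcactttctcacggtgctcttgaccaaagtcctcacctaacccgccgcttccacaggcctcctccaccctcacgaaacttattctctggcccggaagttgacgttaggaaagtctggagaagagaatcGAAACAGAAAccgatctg
Oasl1, chr5:114922990-114923289, plus strand: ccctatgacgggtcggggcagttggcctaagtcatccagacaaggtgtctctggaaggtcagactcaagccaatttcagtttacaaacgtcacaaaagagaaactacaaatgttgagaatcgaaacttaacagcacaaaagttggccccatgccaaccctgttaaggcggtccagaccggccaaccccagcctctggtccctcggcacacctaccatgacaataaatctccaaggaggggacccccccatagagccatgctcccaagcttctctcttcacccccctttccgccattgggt
Overlapping matches stand in Isg15, 3 of them, and are printed as 1 run of capitals. The element was found in 3.84% of the 8880 tested genes with a window and in 12 of the 21 list genes with one (57.1%). Of the 5 windows at hand for the 8 low-p genes, 3 held it. A match is a description of letters, and the Oasl1 window without one says only that these letters are not in it.

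Oasl1, an OAS-like protein that in mice restrains IRF7 translation, stood at 0, 4.35, 1.10, 0 and 0 CPM in N replicates 2, 3, 4, ds1 and ds2, against 5.99, 36.1, 11.3, 11.2 and 18.4 CPM in WT. Every N library lay below every WT library (log2 fold change -5.23, SE 1.30). Ifih1, the RNA sensor MDA5, was the other such member, with 23.7, 57.2, 67.0, 0.971 and 44.0 CPM in N against 68.7, 206, 88.1, 75.8 and 99.8 CPM in WT. The gap was narrow, 67.0 CPM in the highest N library and 68.7 CPM in the lowest WT library, and the log2 fold change was -1.63 (SE 0.56). Such full separation below WT held for these 2 of the 30 list genes, against 0.185% of all genes. As with the other counts of this list, that is a description.

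Among feedback regulators, Usp18, which removes ISG15 from proteins and damps the type I receptor, stood at 30.1, 62.3, 52.5, 27.4 and 85.7 CPM in N, against 75.5, 68.4, 137, 134 and 259 CPM in WT. N was lower in each number, although N ds2 lay above WT replicates 2 and 3. Slfn5, a Schlafen family member, stood at 133, 167, 199, 182 and 109.9 CPM in N, against 266, 294, 351, 281 and 134 CPM in WT, again lower in each number (log2 fold change -0.71, SE 0.22). Rtp4, a transmembrane chaperone for receptors, was lower in 4 of 5 numbers, at 114, 144, 237, 37.5 and 62.4 CPM in N against 244, 124, 376, 405 and 249 CPM in WT. Oas2, which makes the activator of RNase L, ranged from 0 to 31.4 CPM in N and from 20.9 to 43.8 CPM in WT. Isg15, a ubiquitin-like modifier (0 to 11.1 CPM in N, 0 to 24.7 CPM in WT), and Ifi44 (0 to 4.57 CPM in N, 0 to 33.3 CPM in WT) were low and overlapped.

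The 3 members with the highest mean levels had p above 0.05, while Slfn5 and Rtp4, with p below it, averaged 265 and 280 CPM in WT. Ifi27l2a averaged 896 ± 349.9 CPM in N and 1168 ± 413 CPM in WT (log2 fold change -0.41), and Ifi47 530.1 ± 184 CPM in N and 583 ± 242 CPM in WT (-0.12). Trim30a, a restrictor of inflammasome signalling, was at 366 ± 158 CPM in N and 313 ± 163 CPM in WT (0.34). The factor gene Irf9 averaged 226 ± 65.3 CPM in N and 211 ± 57.7 CPM in WT, with an interval of -0.49 to 0.66. In tumour Tregs the list gave 22 of 30 below 0 and a median of -0.29, with 1 member lower at an unadjusted p below 0.05 (Usp18, 0.0477) against 1.15% of all genes. The tissue interaction had an unadjusted p below 0.05 for 3 of the 30 (Oasl1, Oasl2 and Ifih1), against 2.77% of all genes. It reuses the lymph node values, which were known when the list was written, so that count is not read as a tissue difference.

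**Figure D3:**
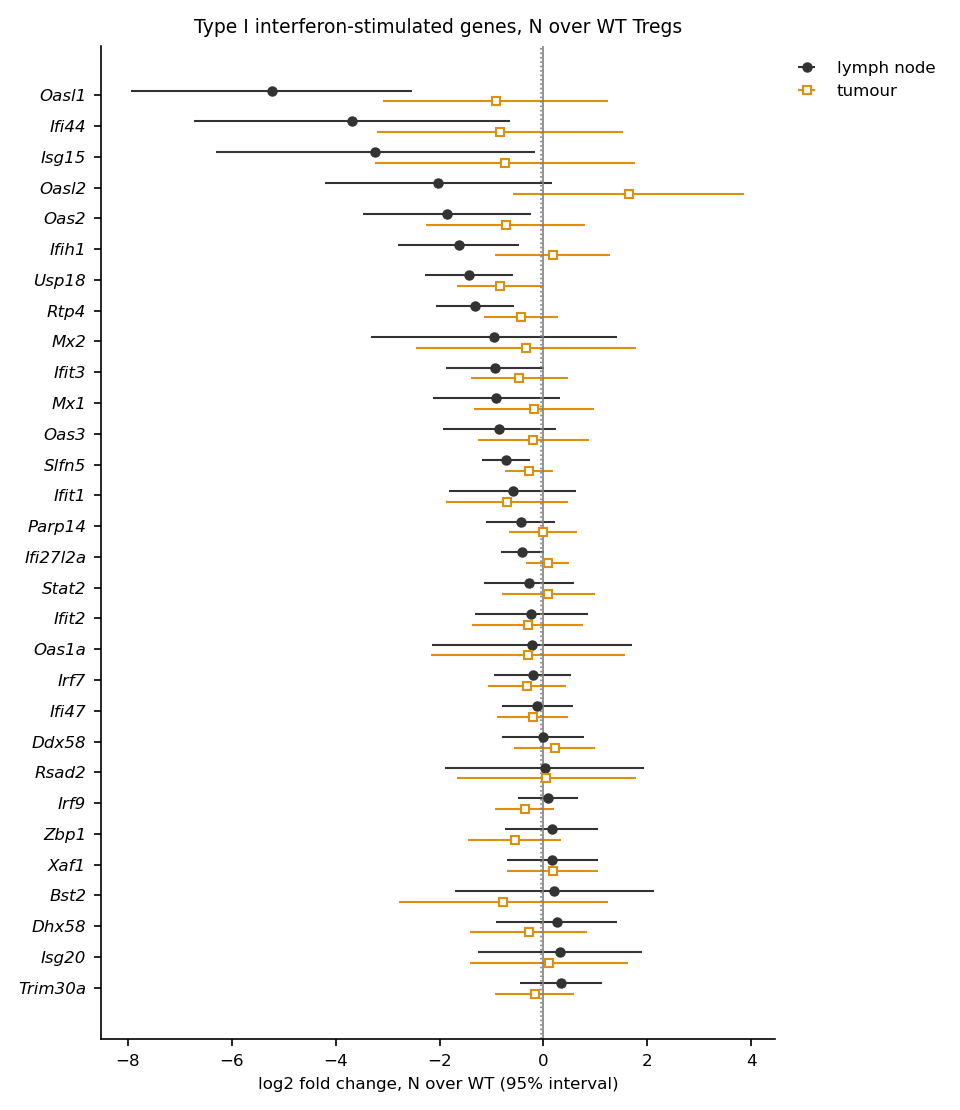
Log2 fold change of N over WT Tregs, with 95% intervals from the fit across all genes, for the 30 genes of the type I interferon list in lymph node (filled circles) and tumour (open squares). The solid line is 0 and the dotted line is the median of all genes in the lymph node (-0.04). In the lymph node 22 of 30 lie below 0 and the intervals of 8 stay below 0.

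Low p-values among interferon gamma signalling genes were near the share over all genes. In the Th1 list, 19 of 20 were tested, 0 had a p below 0.05 (4.31% of all genes did), and the median was 0.01. Tbx21, the Th1 master regulator T-bet, stood at 0.143 to 5.40 CPM in N and 1.23 to 9.69 CPM in WT. Ifngr1, the ligand-binding receptor chain, averaged 154 ± 27.3 CPM in N and 155 ± 31.7 CPM in WT. In the interferon gamma response list of 33, 2 genes were lower (6.06%, against 2.22% of all genes) and 1 higher (3.03%, against 2.09%) at that p, around a median of -0.04. Iigp1, an interferon-inducible GTPase, stood at 119, 94.5, 105, 179.7 and 144 CPM in N replicates 2, 3, 4, ds1 and ds2, against 131, 155, 151, 284 and 219.7 CPM in WT. It was lower in each number (log2 fold change -0.53). B2m, the class I light chain, averaged 3870.4 ± 913 CPM in N and 4872 ± 872 CPM in WT, while Nlrc5, the class I transactivator, averaged 408 ± 274 CPM in N and 226 ± 45.4 CPM in WT, with 883 CPM in N ds1.

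Among the binding partners of Nrp1, 20 of 34 listed neuropilin, semaphorin, plexin and growth factor genes were tested. Nrp1 itself was lower and Vegfb, a growth factor ligand, higher at an unadjusted p below 0.05, against 4.31% of all genes, and the list's median was 0.27. Vegfb stood at 5.83, 13.9, 6.23, 46.8 and 8.79 CPM in N replicates 2, 3, 4, ds1 and ds2, against 0, 1.15, 7.73, 0.330 and 1.20 CPM in WT. Sema4d, a semaphorin of T cells, averaged 329 ± 155 CPM in N and 220.4 ± 124 CPM in WT, and Sema4a, the neuropilin-1 ligand, 38.9 ± 10.5 CPM in N and 66.1 ± 41.6 CPM in WT. Nrp2, the paralog, was low in both groups (0 to 7.05 CPM in N, 0.330 to 27.9 CPM in WT).

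In the AKT, mTOR and FOXO list, 28 of 29 genes were tested and 18 were below 0 (64.3%, against 52.1% of all genes), with a median of -0.24. The list's median difference was below 0 in each of the 5 replicate numbers, from -0.58 in ds1 to -0.01 in ds2. At an unadjusted p below 0.05, 2 were lower (7.14%, against 2.22% of all genes) and 0 higher. Inpp5d, the lipid phosphatase SHIP-1, stood at 72.3, 76.7, 83.4, 24.8 and 88.8 CPM in N, against 81.2, 225, 100.5, 139 and 80.8 CPM in WT. Pik3cb, a catalytic subunit of PI3-kinase, ranged from 1.34 to 6.07 CPM in N and from 0.150 to 74.0 CPM in WT. Klf2, a FOXO target that supports lymph node homing, averaged 248 ± 88.4 CPM in N and 485 ± 403 CPM in WT, where replicate 3 alone reached 1196 CPM.

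The naive and lymphoid homing list had 15 of 22 genes below 0 (68.2%, against 52.1% of all genes). Its median was -0.16, against -0.04 over all genes. An unadjusted p below 0.05 was found for 0 of them, against 4.31% of all genes, too few members to read a difference from. Il7r, the interleukin-7 receptor, stood at 225, 263, 253, 251 and 202 CPM in N replicates 2, 3, 4, ds1 and ds2, against 313, 334, 331, 327 and 258 CPM in WT. N was lower in each number, and the groups overlapped only at WT ds2, but the interval was -1.03 to 0.25. Ccr7, a chemokine receptor needed for entry into nodes, averaged 337 ± 176 CPM in N and 227 ± 53.4 CPM in WT.

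Ribosomal protein genes were below 0 for 36 of 39 members (92.3%, against 52.1% of all genes), with a median of -0.31. An unadjusted p below 0.05 was found for 8, all lower (20.5%, against 2.22% of all genes). This direction was not shared by the replicate numbers. The list's median difference was 0.19 (2), -1.32 (3), -0.66 (4), 0.24 (ds1) and 0.11 (ds2). The summed level of the list was 164634 CPM in WT replicate 3, against 65714 CPM in N replicate 3, and without that WT library the median was -0.03. Rps29, for example, stood at 479, 326, 683, 1119 and 168 CPM in N, against 605, 2129, 1540.0, 837 and 142 CPM in WT. The number of genes with a count moved along, since WT replicate 3 had the highest of the 10.

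**Figure D4:**
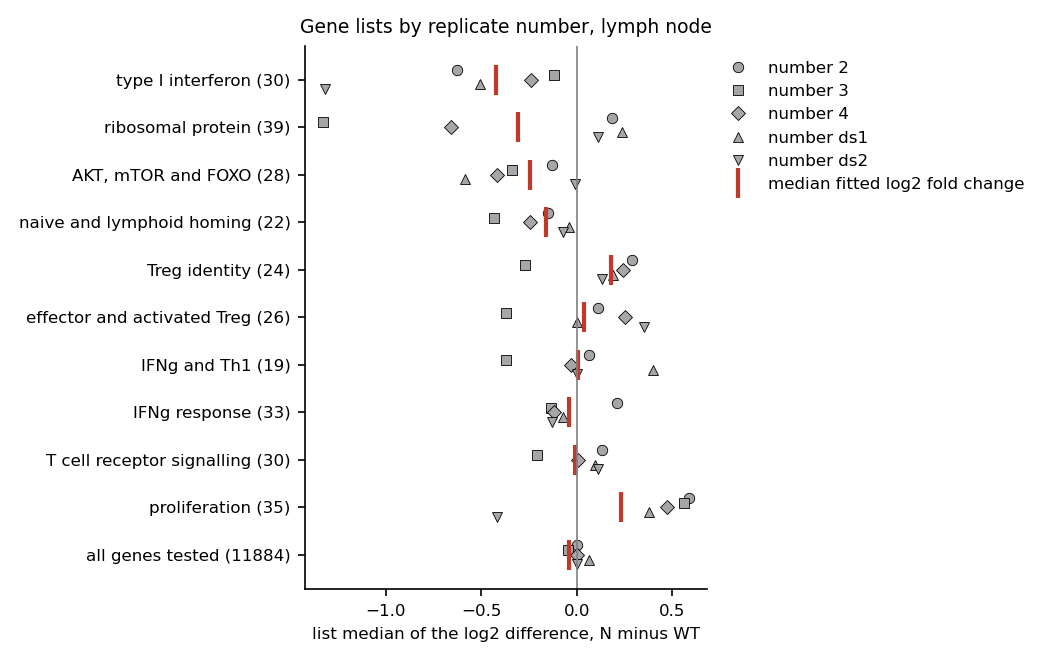
Median log2 difference between N and WT lymph node Tregs for 10 gene lists and for all genes tested, with the number of tested genes in brackets. Grey symbols are the medians within the 5 replicate numbers and red bars the medians of fitted log2 fold changes. The type I interferon list lies below 0 in all 5 numbers, whereas the ribosomal protein list lies below 0 in numbers 3 and 4 only.

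Across the 32 lists examined, 31 had a tested gene, and 17 of those held no member with an unadjusted p below 0.05. Among lists of at least 10 tested genes the medians ran from -0.56 (B cell) to 0.62 (dendritic cell). The B cell value turned to 1.51 without WT replicate 2, and the dendritic cell value was 0.06 without replicate number 2. T cell receptor signalling genes, 30 tested, had a median of -0.01 with 19 intervals within 1 log2 unit of 0. The proliferation list had a median of 0.23, with medians of 0.38 to 0.58 in 4 numbers and -0.42 in ds2.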

How the data were processed

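RNA was measured in sorted Tregs (5000 cells a library, SMARTer ultra low input kit and Nextera XT, per the labels' protocols). Per the submitters' processing notes STAR, featureCounts and limma were used with mm10. No source used here gives versions, gene annotation or strand setting. The authors deposited a table of raw counts for 23420 genes and a log2 expression table for 10832 genes, used only as an alternative. Samples were grouped by their titles.

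Counts were scaled by TMM, filtered with filterByExpr and fitted with edgeR 4.0.16 in R 4.3.3 (quasi-likelihood, robust) on 20 libraries, N and WT Tregs of lymph node and tumour, with the 5 replicate numbers as a block and 12 residual degrees of freedom. The block is part of how the comparison was set. P-values were Benjamini-Hochberg adjusted over all 11884 genes. Nrp1, Ifng and Foxp3 also had an exact permutation test, two-sided, of log2 CPM values (prior count 2). Nothing states that each replicate came from a separate mouse. Y-linked reads in only 1 library of each group point to more than 1 mouse a group, but not to how many. The p-values set the group difference only against the spread of these samples, and that spread may be technical. Libraries of 1 group differed beyond sampling noise, so each counted once. Counting intervals and floors cover counting error only, since reads carry no molecular identifiers.

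The members, gene lists and tests were chosen with earlier results of these data known. By rule the text names Nrp1, Foxp3 and Ifng, genes called, up to 8 genes a direction by lowest p (at least 5 CPM in 1 group, 1 sign in 4 of 5 numbers), and the highest members of lists. Some genes that the rule takes are not reported here. Other genes were named for their role or after their values were seen. Alternatives covered the block, the libraries fitted, scaling, filters, each library and number left out, single-sorted (2, 3, 4) and double-sorted (ds1, ds2) libraries, limma 3.58.1, DESeq2 1.42.0 and the deposited log2 values. Scripts were tested on simulated data. Coordinates come from GENCODE vM21 on mm10 (94.3% of tested symbols matched), promoters from RefSeq.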

Additional observations from a re-analysis of the deposited data

Results flagged for a closer look

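Of 38 groups of 5 libraries examined for a sample far from the others, 1 stood out, where chance alone flags about 1 in 20 groups. Gstt1 had a log2 CPM of -1.84 in N ds1, which is 1 count or 0.121 CPM, while the other 4 N lymph node libraries were at 0.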

How the results depend on the processing

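The 0 genes called in the lymph node, and 0 in the tissue interaction, became 24 and 6 with no filter on low counts (9 of the 24 were ribosomal protein genes, all lower in N), 2 and 2 with limma and quality weights, and 37 and 13 with DESeq2. Of DESeq2's 37, 9 were among the 16 named by lowest p and 35 had an unadjusted p below 0.05 in edgeR. The cause was not tested. With each library or number left out the counts stayed at 0 to 0 in both. Without the replicate block edgeR also called 0, with 502 genes at an unadjusted p below 0.05. Same-numbered libraries correlated from -0.01 to 0.45 in their deviations, and 7 of 10 correlated best with their own number, so the numbers are a hint of pairing from the data, not from the design. The exact differences for Nrp1 and Ifng lost the threshold in a sign-flip test within numbers with the replicate block (-0.83 and 2.70, permutation p = 0.0625 each, the smallest it allows), in single-sorted libraries (-1.02 and 1.79, p = 0.100 each) and in double-sorted ones (-0.56 and 4.07, p = 0.333 each), where the number of libraries cannot reach it. Leaving out libraries gave -1.04 to -0.71 for Nrp1 (permutation p 0.0159 to 0.0476), 1.73 to 3.17 for Ifng (0.00794 to 0.0476) and 0.40 to 2.51 for Foxp3 (0.190 to 0.857). The Foxp3 sign turned in double-sorted libraries (-0.88 exact, -0.0041 in edgeR) and in the deposited log2 values (-0.14 in both). The type I interferon median stayed below 0 in all settings run, from -0.79 to -0.17. The ribosomal protein median was -0.03 without WT replicate 3, 0.14 in double-sorted libraries and 0.05 in the deposited log2 values.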

Other observations

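Itgb1 lies 182 kb from Nrp1 on mm10 chromosome 8, with its start at 128685654. It was one of 7 other tested genes within 2.0 Mb on either side. In the lymph node 2 of the 7 had an unadjusted p below 0.05 in edgeR, against 4.31% of all genes. They were Itgb1, and Rbm34 at a log2 fold change of -1.64. In the tumour 1 had such a p (Itgb1), against 2.18% of all genes. Itgb1 prompted the look and is counted in both tissues, and 7 genes are too few to read a share from. This region was looked at after the Itgb1 values were seen. In lymph node Tregs sorted from heterozygous mice, scaled with all 45 libraries, Itgb1 ran from 484 to 1102 CPM (median 551) in the Nrp1-deficient cells and from 438 to 766 CPM (median 726) in the wild-type cells of those mice. On the same scale it ran from 577 to 821 CPM (median 777) in N and from 238 to 548 CPM (median 395) in WT. Replicates 3 and 4 of each heterozygous group were nearly alike in counts and were averaged, leaving 4 samples a group.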
